A study of Mus musculus with 18 samples.

Results

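The vascular endothelial growth factor (VEGF) genes described here are 4 ligand genes (Vegfa, Vegfb, Vegfc and Pgf), 3 receptor genes (Flt1, Kdr and Flt4) and 2 co-receptor genes, the neuropilins Nrp1 and Nrp2. These 9 genes were chosen by name from the 49184 genes to which the transcripts of the files could be assigned, and all 9 passed the filter on low counts. They were measured by total RNA sequencing of knee cartilage from male C57Bl/6J mice (genotype C57bl6 in the labels) aged 12 weeks, in which a single 12 N load to the right knee had ruptured the anterior cruciate ligament (ACL). The groups were the injured right knee at day 1 (3 libraries) and at day 7 (3 libraries), the uninjured contralateral left knee of injured mice at day 1 (3 libraries) and at day 7 (3 libraries), and knees of naïve, unloaded mice (6 libraries, labelled as day 7). All groups carried the same genotype. Each library was made from pooled cartilage caps of the femoral condyle. The series text gives 4 mice per library, whereas the scheme of the study gives 2 knees per library at day 1 and in naïve mice and 4 knees at day 7. In that scheme, left and right knees of the same 6 naïve mice were pooled separately. By that scheme the 6 naïve libraries were not 6 separate sets of mice. Injured and contralateral libraries also came from the same mice, and the labels do not tie libraries to mice. The p-values below therefore treat libraries as independent samples and measure the spread between pools, some of which shared mice.

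VEGF ligands are secreted dimers that drive the growth of blood and lymph vessels. VEGF-A acts mainly through the kinase receptor VEGFR2 (Kdr) on blood vessel endothelium, VEGF-B and placental growth factor (Pgf) bind VEGFR1 (Flt1), and VEGF-C and VEGF-D bind VEGFR3 (Flt4), the receptor of lymphatic endothelium. Neuropilins bind heparin-binding VEGF forms and present them to the kinase receptors, and they also bind class 3 semaphorins, which signal through plexins. In skeletal tissue, VEGF-A made by hypertrophic chondrocytes brings vessels into growth cartilage, whereas healthy adult articular cartilage contains no vessels.

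Transcripts of Flt1 and Nrp2 part ways at a single splice site that decides which protein is made, so the 30 bases around each parting point are shown. Lower case marks the 15 bases shared by both transcripts and capitals mark the first 15 bases that belong to each transcript alone. The first pair is from Flt1 (GRCm38, minus strand of chromosome 5, last shared base 147639225, end of exon 13). Flt1-202 splices on to the exons that encode the membrane span and the kinase, and Flt1-203 runs on into the next intron and ends as the soluble receptor, a form that binds ligand without signalling. The second pair is from Nrp2 (GRCm38, plus strand of chromosome 1, last shared base 62786301, end of exon 15), where Nrp2-202 encodes a neuropilin-2a and Nrp2-205 a neuropilin-2b, which differ in their membrane span and cytoplasmic tail.
Flt1-202: aagttctcgttagagATTCGGAAGCGCCAC
Flt1-203: aagttctcgttagagGTGAGCACTGCGGCA
Nrp2-202: tatcagcttttgcagTGGACATCCCAGAAA
Nrp2-205: tatcagcttttgcagGGGGCACCCTCCCGC

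The files gave 16074762 to 41794005 estimated counts per library, with a median of 25465706.5. Levels are given below as CPM, counts relative to library size, scaled with trimmed-mean normalization over the 18 libraries. Within pathway and marker lists, the most abundant gene is the one with the highest CPM, which is not scaled by transcript length. The tissue was labelled as cartilage and the cell type as chondrocyte. Chondrocyte markers were present in every group, led by Col2a1 (type II collagen) at 3240 ± 886 CPM in naïve cartilage (SD, n = 6). The libraries also held RNA of other tissues: in naïve cartilage, 8 erythroid markers summed to 34648 ± 3950 CPM, 7 neutrophil markers to 11637 ± 1861 CPM, 6 skeletal muscle markers to 5632 ± 2233 CPM and 18 endothelial markers to 756 ± 49.7 CPM (SD, n = 6). Replicate 1 of the day 7 contralateral group stood apart from the other libraries. Its 10 most abundant genes took 42.5% of its counts, against 16.6 to 29.8% in the other 17, and mitochondrial genes took 0.914%, against 3.65 to 8.68%. The methods of the study state that a library of this mouse model was dropped for a low mapping rate. The labels do not say which, and all 18 libraries were used here, so the dropped library may be among them. In these bulk samples, fewer cells of a type and less RNA per cell cannot be told apart.

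Per length, the co-receptors and Vegfa were the most abundant of the 9 genes. The levels in this paragraph are CPM per kilobase of effective transcript length, the scale on which genes can be compared. In naïve cartilage Nrp2 stood at 25.9 ± 3.09, Vegfa at 22.9 ± 3.36 and Nrp1 at 22.9 ± 2.05 (SD, n = 6). Their ranges over the 6 naïve libraries overlapped, so these levels were not separated. Vegfb (13.2 ± 3.61), Kdr (10.7 ± 1.38) and Flt1 (8.96 ± 1.04) formed a middle group, followed by Flt4 at 4.69 ± 0.434. The remaining 2 ligands were lowest, with Vegfc at 2.82 ± 0.521 and Pgf at 2.50 ± 0.359. Flt4 held rank 7 of 9 in all 18 libraries, and Nrp2, Vegfa and Nrp1 held ranks 1 to 3 in every library. At day 7 after injury Nrp2 was at 41.3 ± 5.71 and Nrp1 at 29.8 ± 1.79, while Vegfa was at 25.0 ± 2.25 (SD, n = 3). The day 7 injured libraries of Nrp2 (35.5 to 46.9) all lay above those of Nrp1 (28.02 to 31.6).

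**Figure D1:**
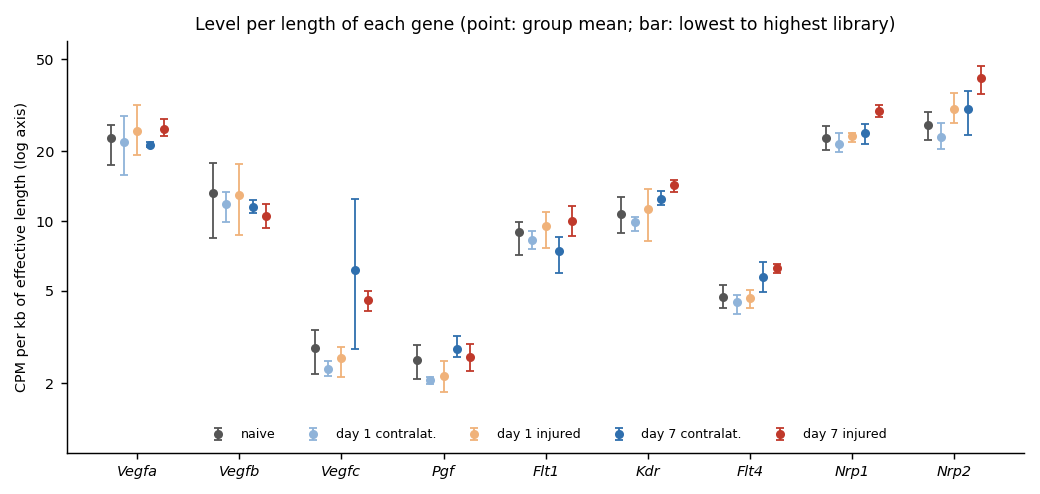
Level of each gene per length, in CPM per kilobase of effective transcript length on a log axis, with the group mean as a point and the lowest to highest library as a bar. Nrp2, Vegfa and Nrp1 lie highest. Vegfc and Pgf lie lowest except in the day 7 contralateral group, where the Vegfc mean (6.12) is above that of Flt4 (5.72). The long Vegfc bar of the day 7 contralateral group reaches 12.4, the value of replicate 1, in which a short Vegfc transcript took 46.4% of the gene's counts.

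At day 7, injured cartilage differed from naïve cartilage in the co-receptor Nrp2 and the ligand Vegfc, while the ligands Vegfa, Vegfb and Pgf did not pass the test. Genes were called at a false discovery rate (FDR, the Benjamini-Hochberg adjusted p of edgeR's quasi-likelihood test over 21129 genes) of 0.05 or less and a change of at least 1.5-fold. By this rule 2 of the 9 genes were called higher and 0 lower, against a background of 10.4% of all tested genes called higher and 6.11% lower. Without the fold limit 5 of the 9 passed, all higher (Nrp2, Flt4, Nrp1, Vegfc and Kdr), against 18.7% of all genes. The median log2 fold change of the 9 genes was 0.40, and that of all tested genes was -0.04.

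Nrp2 (ENSMUSG00000025969, chr1:62703285-62818695, plus strand) encodes neuropilin-2, a co-receptor for VEGF-C and for semaphorins. It was at 222, 261 and 286 CPM in the 3 day 7 injured libraries. In naïve cartilage its lowest, median and highest values were 137, 161 and 183 CPM. The day 7 injured libraries thus all lay above the naïve ones, and the log2 fold change was 0.70 ± 0.12 (SE; FDR = 5.5e-04 by edgeR). In contralateral cartilage at day 7 it was at 147, 197 and 226 CPM, and the highest of these lay within the injured range. Against that group the log2 fold change was 0.43 ± 0.17 (SE; FDR = 0.081 by edgeR), and without contralateral replicate 1, its lowest library, it was 0.30 ± 0.16 (FDR = 0.23).

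Nrp1 (ENSMUSG00000025810, chr8:128358604-128503363, plus strand) encodes neuropilin-1, the co-receptor that enhances VEGF-A signalling through VEGFR2. It was at 95.0, 100.4 and 106 CPM in the day 7 injured libraries, and at 67.9, 77.2 and 85.9 CPM (lowest, median, highest) in naïve cartilage. All 3 injured libraries lay above all naïve and all contralateral libraries, the latter being at 73.0, 88.6 and 81.9 CPM. The change was smaller than that of Nrp2, at a log2 fold change of 0.40 ± 0.09 against naïve (SE; FDR = 0.0024 by edgeR) and 0.31 ± 0.11 against contralateral cartilage (FDR = 0.051). It therefore passed the FDR but not the fold limit against naïve knees, and neither against contralateral knees.

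Vegfc (ENSMUSG00000031520, chr8:54077606-54187096, plus strand) encodes the ligand of VEGFR3 that drives lymphatic growth. It was a low-abundance gene, with 87 to 199 counts per library. The day 7 injured libraries held 8.95, 7.48 and 9.20 CPM, and naïve cartilage held 4.30, 6.18 and 6.43 CPM (lowest, median, highest). The injured libraries lay above those of every other group, since the day 7 contralateral libraries were at 7.17, 7.09 and 6.18 CPM. The log2 fold change against naïve was 0.59 ± 0.13 (SE; FDR = 0.0035 by edgeR), just past the limit of 0.58 that corresponds to 1.5-fold. The call was lost when naïve replicate 1 or 4, or day 7 injured replicate 1 or 3, was left out. The log2 fold change was then 0.52, 0.56, 0.56 and 0.54, respectively, at an FDR of 0.0042 to 0.026. The call was also lost with DESeq2 size factors in edgeR (0.5846), without the filter on low counts (0.5818) or with all 18 libraries (0.5762). To 4 digits the fold limit is 0.5850. Against contralateral cartilage the log2 fold change was 0.33 ± 0.16 (SE; FDR = 0.16 by edgeR). It was -0.26 (FDR = 0.71) when transcript length entered the edgeR fit.

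Vegfa (ENSMUSG00000023951, chr17:46016993-46032369, minus strand), the principal angiogenic ligand, was at 43.8, 43.6 and 51.6 CPM in day 7 injured cartilage. In naïve cartilage its lowest, median and highest values were 28.4, 39.0 and 49.1 CPM, so the groups overlapped. The log2 fold change of 0.27 ± 0.20 (SE; FDR = 0.33 by edgeR) was within the spread between libraries. At day 7 the contralateral libraries (35.1, 37.4 and 39.5 CPM) all lay below the injured ones, yet the log2 fold change of 0.31 ± 0.22 (FDR = 0.37) did not pass. The interval of ± 2 SE around the change against naïve ran from -0.13 to 0.66, which includes a 1.5-fold rise.

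Vegfb (ENSMUSG00000024962, chr19:6982473-6987651, minus strand) encodes a VEGFR1 ligand with a role in fatty acid uptake and muscle. It was the only one of the 9 genes with a lower mean in day 7 injured than in naïve cartilage. The injured libraries were at 9.58, 10.2 and 12.2 CPM, and the naïve libraries at 8.20, 12.7 and 17.9 CPM (lowest, median, highest). The naïve range enclosed the injured one, and the log2 fold change of -0.28 ± 0.24 (SE; FDR = 0.41 by edgeR) did not pass. With single libraries left out this change ran from -0.38 to -0.17. Pgf (ENSMUSG00000004791, chr12:85166635-85177790, minus strand) was the least counted gene, with 46 to 123 counts per library. It was at 4.04, 3.67 and 2.96 CPM in day 7 injured cartilage, 3.58, 4.46 and 3.55 CPM in contralateral cartilage and 2.47, 3.25 and 3.91 CPM (lowest, median, highest) in naïve cartilage. These ranges overlapped, and its log2 fold change was 0.15 ± 0.17 against naïve (SE; FDR = 0.53 by edgeR), and 0.048 without injured replicate 1 to 0.27 without injured replicate 3.

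Kdr (ENSMUSG00000062960, chr5:75932827-75978458, minus strand) encodes VEGFR2, the main signalling receptor of blood vessel endothelium. It was at 75.9, 82.2 and 85.4 CPM in day 7 injured cartilage, against 49.7, 61.8 and 71.4 CPM (lowest, median, highest) in naïve cartilage. These groups did not overlap, and the log2 fold change was 0.44 ± 0.13 (SE; FDR = 0.023 by edgeR), under the fold limit. The day 7 contralateral libraries, at 77.0, 66.5 and 68.2 CPM, overlapped with both groups, the highest of them falling within the injured range, and the log2 fold change from contralateral to injured cartilage was 0.20 ± 0.16 (FDR = 0.41). Flt4 (ENSMUSG00000020357, chr11:49609263-49652739, plus strand), which encodes VEGFR3, was at 39.5, 36.2 and 37.9 CPM in day 7 injured and at 25.1, 27.8 and 31.9 CPM (lowest, median, highest) in naïve cartilage. Every injured library was above every naïve one, with a log2 fold change of 0.45 ± 0.09 (SE; FDR = 0.0016 by edgeR). In the day 7 contralateral group Flt4 was at 40.3, 33.5 and 29.9 CPM, its highest value of all 18 libraries being that of replicate 1. Its log2 fold change was 0.29 ± 0.10 from naïve to contralateral cartilage (SE; FDR = 0.25 by edgeR) and 0.14 ± 0.12 from contralateral to injured cartilage (FDR = 0.49). Leaving out single libraries gave 0.024 (without contralateral replicate 3) to 0.28 (without contralateral replicate 1, FDR = 0.11) for the latter.

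Flt1 (ENSMUSG00000029648, chr5:147561604-147726011, minus strand) encodes VEGFR1, which binds VEGF-A tightly and signals weakly. It was at 55.1, 61.1 and 71.0 CPM in day 7 injured cartilage and at 40.9, 54.9 and 58.4 CPM (lowest, median, highest) in naïve cartilage. The lowest injured library lay inside the naïve range, and the log2 fold change was 0.27 ± 0.13 (SE; FDR = 0.12 by edgeR). With single libraries left out it ran from 0.17 to 0.36. The day 7 contralateral libraries, at 38.1, 48.7 and 51.1 CPM, were all below the injured ones. In that comparison Flt1 had a log2 fold change of 0.44 ± 0.16 (SE; FDR = 0.064 by edgeR), close to that of Nrp2 (0.43 ± 0.17, FDR = 0.081), and neither passed. Without contralateral replicate 1 Flt1 had 0.35 ± 0.16 (FDR = 0.17), below Vegfc at 0.39 ± 0.17 (FDR = 0.14).

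**Figure D2:**
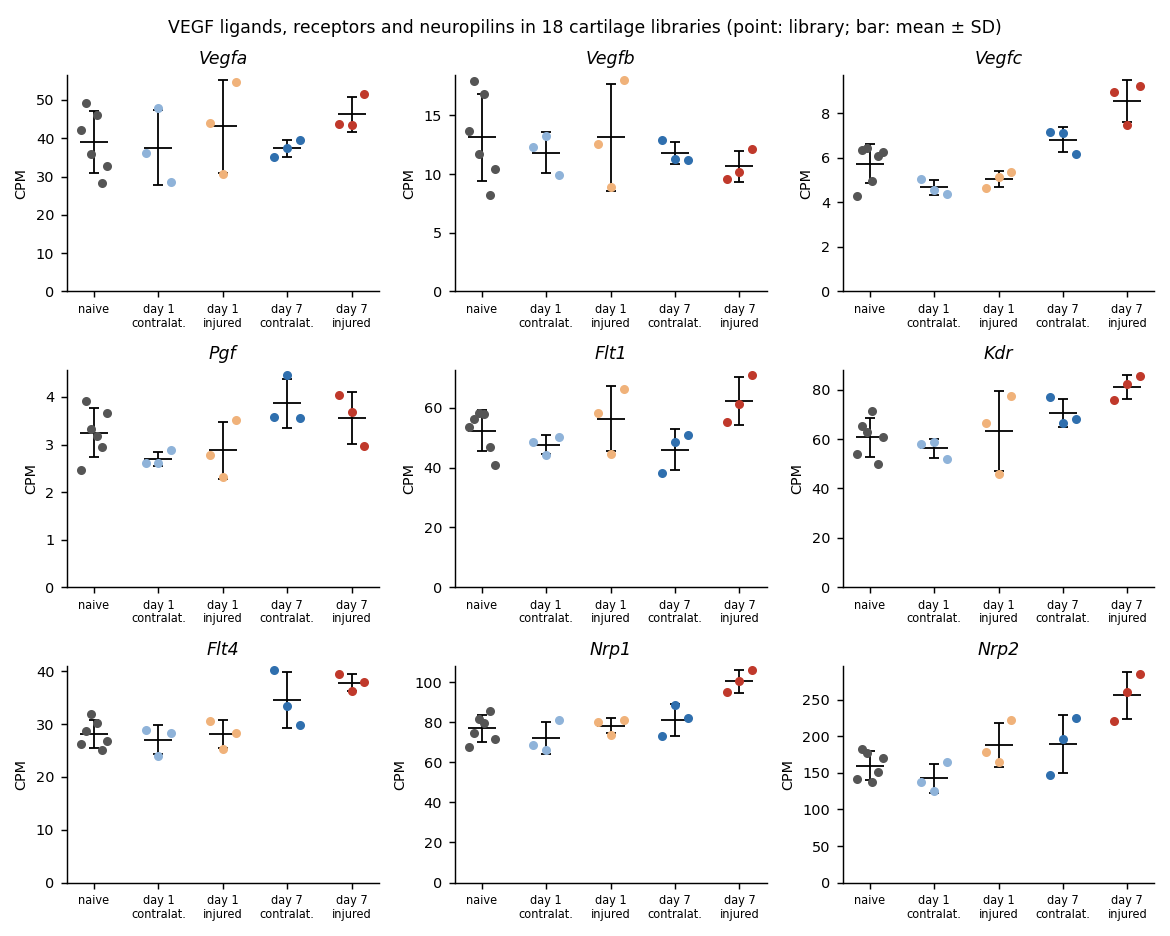
CPM of each gene in the 18 libraries by group, with each library as a point and mean ± SD as a bar, on linear axes from 0. The 3 day 7 injured libraries lie above all 6 naïve libraries for Vegfc, Kdr, Flt4, Nrp1 and Nrp2 and overlap with them for Vegfa, Vegfb, Pgf and Flt1.

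Groups that do not overlap were seen for 5 of the 9 genes between day 7 injured and naïve cartilage, all with the injured libraries higher. Over all 21129 tested genes the injured libraries lay above the naïve ones in 17.4%. Against day 7 contralateral cartilage 0 of the 9 genes were called, beside 9.33% of 21262 tested genes called higher and 3.23% lower. At an unadjusted p of 0.05, 4 of the 9 genes passed in edgeR (Nrp1, Flt1, Nrp2 and Vegfc), and also 4 each in DESeq2 and limma-voom, beside 31.2% of all genes in edgeR. Without contralateral replicate 1, Flt4 had an unadjusted p of 0.027 and Nrp2 one of 0.079, and 0 of the 9 genes were called. For 4 genes (Vegfa, Vegfc, Flt1 and Nrp1) the injured libraries all lay above the contralateral ones, which held for 18.6% of all genes. Between contralateral knees at day 7 and naïve knees 0 of the 9 genes were called by edgeR, beside 0% of all genes called, 1 of the 9 genes (Flt4) and 15.1% of all genes at an unadjusted p of 0.05, and 31 genes called by DESeq2 and 0 by limma-voom over all genes. Without contralateral replicate 1, Flt4 had a log2 fold change of 0.17 ± 0.10 (SE; FDR = 0.92 by edgeR), and Nrp2, at 0.40 ± 0.14 (FDR = 0.88), was the gene with an unadjusted p under 0.05. Both comparisons with injured cartilage at day 7 use the same injured libraries.

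**Figure D3:**
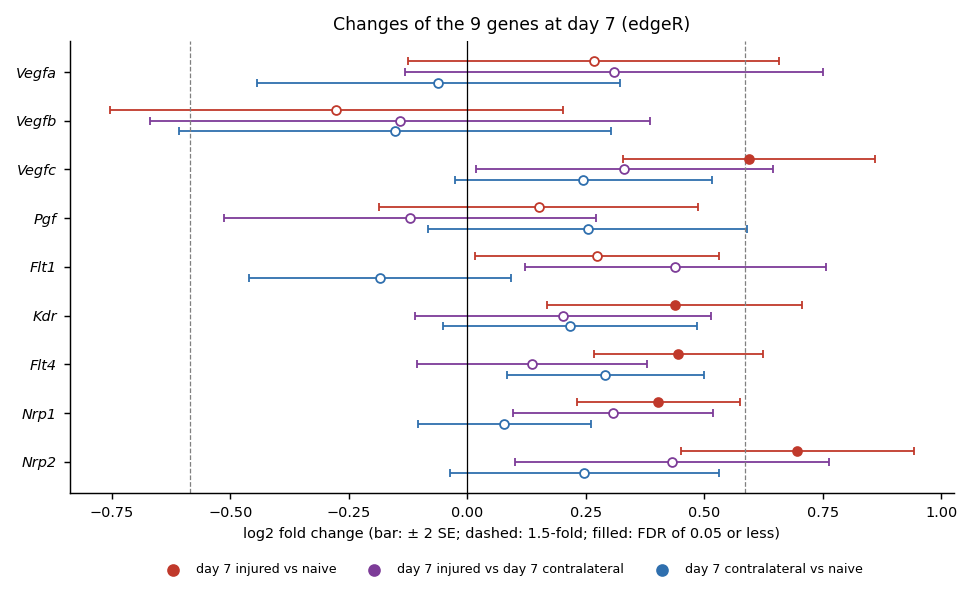
Log2 fold changes of the 9 genes at day 7 in 3 comparisons that share libraries, with bars of ± 2 SE. Filled points have an FDR of 0.05 or less by edgeR and the dashed lines mark 1.5-fold. Only Nrp2 and Vegfc pass the upper dashed line with a filled point, and no point of the other 2 comparisons is filled.

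Between day 1 and day 7 after injury, Vegfc rose and the neuropilins and Flt4 moved in the same direction by less. Vegfc was at 4.65, 5.12 and 5.35 CPM in day 1 injured cartilage, below all day 7 injured libraries, and its log2 fold change of 0.78 ± 0.16 (SE; FDR = 0.0022 by edgeR) was the only call among the 9 genes. The background was 9.04% of 21129 tested genes called higher and 6.38% lower. Flt4 (0.45 ± 0.10), Nrp2 (0.46 ± 0.14) and Nrp1 (0.38 ± 0.10, log2 fold change with SE) passed the FDR, at 0.0061, 0.031 and 0.014, but not the fold limit, and 16.2% of all genes passed the FDR as higher. For Vegfc, Flt4 and Nrp1 all day 7 injured libraries lay above all day 1 injured ones, as for 22.8% of all genes. Nrp2 was already at 179, 164 and 222 CPM in day 1 injured cartilage, and 1 of these libraries lay at the lower end of the day 7 range. When day 1 injured replicate 3, that highest library, was left out, Nrp2 was called as well, at a log2 fold change of 0.59 and an FDR of 0.017. The contralateral knees differed in the same direction between these days, which was not tested by itself. Vegfc was at 4.67 ± 0.340 CPM in day 1 and 6.81 ± 0.547 CPM in day 7 contralateral cartilage, and Flt4 at 27.1 ± 2.73 and 34.6 ± 5.29 CPM (SD, n = 3 each), with no overlap between the days for either gene. Kdr (51.7 to 58.9 and 66.5 to 77.0 CPM) and Pgf (2.61 to 2.87 and 3.55 to 4.46 CPM) did not overlap either. The share of all genes without overlap between these groups was not computed. Nrp2 ran from 126 to 165 CPM at day 1 and from 147 to 226 CPM at day 7, and Nrp1 from 66.3 to 81.1 CPM and from 73.02 to 88.6 CPM, with overlap.

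At day 1 after injury none of the 9 genes was called against naïve or contralateral cartilage by edgeR, beside 0% of all genes in either comparison. At an unadjusted p of 0.05, 0 of the 9 passed against naïve (4.54% of all genes) and 1 (Nrp2) against contralateral cartilage (6.55% of all genes). DESeq2 called 7 genes and 0 genes over the whole table in these comparisons, and limma-voom 0 in both, with none of the 9 among them. Nrp2 had the largest change at that day, a log2 fold change of 0.39 ± 0.14 between injured and contralateral knees (SE; FDR = 0.76 by edgeR). The spread at day 1 was wide: Vegfa was at 44.0, 30.6 and 54.8 CPM and Vegfb at 12.5, 8.93 and 17.99 CPM in the 3 injured libraries. Replicate 3 held the highest and replicate 2 the lowest value for Vegfa, Vegfb, Pgf, Flt1 and Kdr. Contralateral knees at day 1 had a log2 fold change under 0 from naïve for all 9 genes (-0.30 to -0.05), none of them called by edgeR, with 0% of all genes called. At an unadjusted p of 0.05, 1 of the 9 (Vegfc) passed, beside 2.62% of all genes, and DESeq2 called 2 genes and limma-voom 0 over the whole table. The injury effect (injured against contralateral) at day 7 minus that at day 1 was not called for any of the 9 genes, nor did any pass an unadjusted p of 0.05, by edgeR, DESeq2 or limma-voom, beside 4.01% of 21262 genes called in edgeR (3.72% higher and 0.287% lower) and 16.3% at that p. The differences ran from -0.29 ± 0.37 (Vegfb) to 0.22 ± 0.22 (Vegfc) on the log2 scale (SE).

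Ordered by group mean, day 7 injured cartilage was highest for 7 of the 9 genes (Vegfa, Vegfc, Flt1, Kdr, Flt4, Nrp1 and Nrp2). Only Vegfc and Nrp1 were separated from the next group in that order, which was the day 7 contralateral group for both. For the other genes every neighbouring pair of groups overlapped. Vegfb was lowest in day 7 injured cartilage at 10.6 ± 1.35 CPM (SD, n = 3) and highest in day 1 injured cartilage at 13.2 ± 4.56 CPM (SD, n = 3), and Pgf was highest in day 7 contralateral cartilage at 3.86 ± 0.515 CPM (SD, n = 3).

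Flt1 RNA was split between the full-length receptor and the soluble form. Flt1-202, whose 30 exons encode 1333 residues, took 67.8 ± 4.01% of the gene's estimated counts in naïve cartilage (SD, n = 6), and Flt1-203, with 13 exons and 688 residues, took 29.3 ± 4.08%. In day 7 injured cartilage Flt1-203 took 36.3, 34.5 and 30.9%. The naïve libraries ran from 23.2 to 34.7%, so the groups overlapped, and the difference of 4.62 percentage points had a 2-sided exact permutation p of 0.14 (adjusted p = 0.29 over the 2 genes tested; smallest possible p = 0.024). The day 7 contralateral libraries were at 27.8, 29.5 and 26.9%, all below the injured ones. Injured minus contralateral was 5.80 percentage points (2-sided exact permutation p = 0.10, smallest possible p = 0.10). Of the gene's TPM, which is scaled by length, Flt1-203 took 34.6 ± 3.46% in day 7 injured and 28.1 ± 4.94% in naïve cartilage (SD). The difference of 6.57 percentage points on that scale had a 2-sided exact permutation p of 0.071 (adjusted p = 0.14).

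Most estimated counts of Vegfa were assigned to Vegfa-202, annotated with a reading frame of 368 residues, which took 70.2 ± 7.29% in naïve (SD, n = 6) and 75.4 ± 6.34% in day 7 injured cartilage (SD, n = 3). The difference of 5.20 percentage points had a 2-sided exact permutation p of 0.36 (adjusted p = 0.36). It ran from 1.57 to 7.43 percentage points when single libraries were left out. The day 7 contralateral libraries were higher than either mean, at 81.5 ± 1.86% (SD, n = 3), and the injured share minus the contralateral share was -6.16 percentage points (2-sided exact permutation p = 0.30, smallest possible p = 0.10). Counts weigh long transcripts more, and of the gene's TPM, which is scaled by length, Vegfa-202 took 36.6 ± 6.62% in naïve (SD, n = 6) and 42.8 ± 4.29% in day 7 injured cartilage (SD, n = 3). The contralateral TPM shares were 41.4, 45.7 and 43.9%, and injured minus contralateral was -0.897 percentage points on that scale (2-sided exact permutation p = 0.80). Vegfa-201, whose 146 residues encode the short form that does not bind heparin, took 13.6 ± 3.96% of the counts in naïve and 11.4 ± 3.82% in day 7 injured cartilage. It was listed at or near 0 in day 7 contralateral replicates 1 and 2 and at 7.60% in replicate 3. Vegfb was divided between Vegfb-202 (188 residues, the heparin-binding form, 49.6 ± 8.07% in naïve cartilage) and Vegfb-201 (207 residues, the diffusible form, 49.0 ± 7.72%).

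The forms of Nrp2 had similar shares in injured and naïve cartilage. The 2 neuropilin-2b transcripts (901 and 906 residues) took 42.2 ± 2.68% of its counts in naïve (SD, n = 6) and 42.6 ± 1.93% in day 7 injured cartilage (SD, n = 3), and the 4 neuropilin-2a transcripts (909 to 931 residues) took 56.8 ± 2.72% and 56.8 ± 1.95%. Both differences were smaller than the SD of either group. Kdr-201, Flt4-201 and Nrp1-201 took 98.1 ± 0.807%, 98.8 ± 0.573% and 92.2 ± 0.799% of their genes' counts in naïve cartilage (SD, n = 6). Vegfc-201, which encodes the full precursor of 415 residues, took 89.5% or more in 17 libraries and 41.5% in day 7 contralateral replicate 1, where the short transcript Vegfc-203 (184 residues) took 46.4%. That library held 92 Vegfc counts, and 42.6 of them were assigned to Vegfc-203. When transcript length entered the edgeR fit, the log2 fold change of Vegfc between injured and contralateral knees at day 7 was -0.26 (FDR = 0.71) instead of 0.33.

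**Figure D4:**
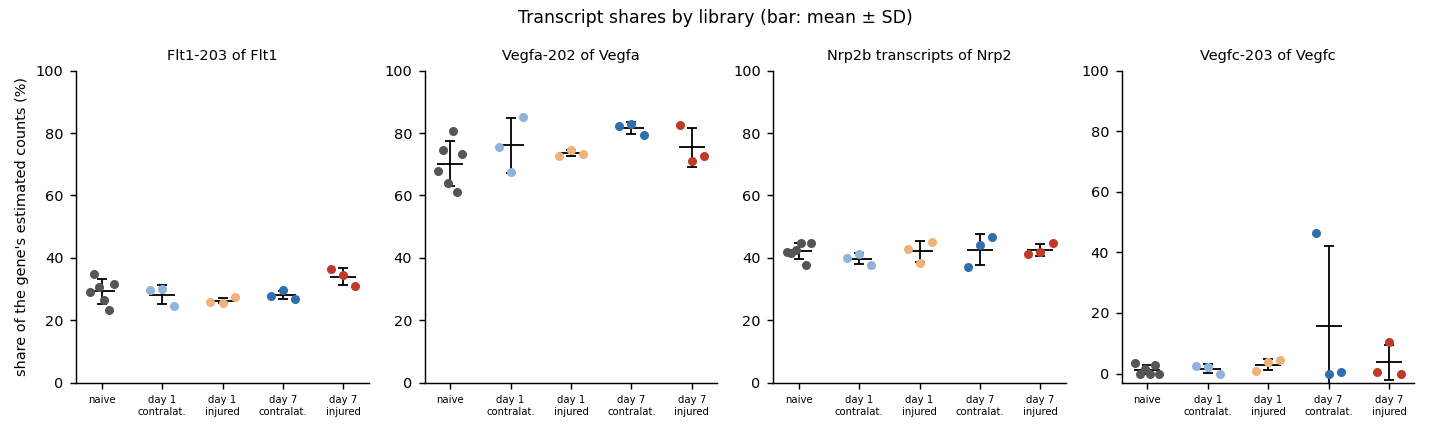
Share of each gene's estimated counts, in percent, taken by Flt1-203, Vegfa-202, the neuropilin-2b transcripts and Vegfc-203, with libraries as points and mean ± SD as bars. Flt1-203 reaches 36.3% in day 7 injured cartilage against at most 34.7% in naïve cartilage, the neuropilin-2b share is level across groups, and a single day 7 contralateral library holds 46.4% Vegfc-203.

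Among genes that act before and after the VEGF receptors, those for ligand processing, matrix binding and inhibition had the highest median changes. Among 7 genes for the proteolytic processing of VEGF-C and VEGF-D, 5 were called higher at day 7 against naïve and the same number against contralateral cartilage, beside 10.4% and 9.33% of all genes. The median log2 fold change of this list was 1.28 against naïve. Adamts3, a protease that cleaves pro-VEGF-C, started from 6.16 ± 1.18 CPM in naïve cartilage (SD, n = 6) and had a log2 fold change of 1.47 ± 0.16 (SE; FDR = 5.4e-06 by edgeR). Its cofactor Ccbe1 had a log2 fold change of 0.96 ± 0.28 (FDR = 0.017), and Adamts14 and Adamts2, procollagen peptidases of the same family, had 1.47 and 1.32. Pcsk5, a proprotein convertase, was called as well (1.28 ± 0.40), and Furin, the most abundant convertase of the list, passed the FDR at 0.011 with a log2 fold change of 0.50, under the fold limit. Without day 7 injured replicate 3 the count against naïve was 3 of 7, and the count against contralateral cartilage was 3 without contralateral replicate 1 or injured replicate 3 and 4 without any other library of that comparison.

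Of 9 genes whose products hold VEGF at the cell surface or in the matrix, 8 were called higher against naïve and 6 against contralateral cartilage, beside 10.4% and 9.33% of all genes, and 0 were called lower. Ptn (pleiotrophin) went from 2.53 to 49.8 CPM, with a log2 change of 4.31 ± 0.33 (SE; FDR = 2.2e-07 by edgeR). The heparan sulphate proteoglycans Sdc1 (1.84), Sdc2 (1.42) and Hspg2 (perlecan, 1.41) and the abundant matrix protein Fn1 (fibronectin, 1.63, from 2788 to 8540 CPM) were called in both comparisons, with these log2 fold changes against naïve. Sdc3 (0.25 ± 0.13) was the 1 gene not called in either.

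Most class 3 semaphorins, the other ligands of the neuropilins, were called higher. Of 6 genes, 4 were called higher against naïve and 4 against contralateral cartilage (3 or 4 in each when single libraries were left out), beside 10.4% and 9.33% of all genes, with a median log2 fold change of 0.86 against naïve. Sema3c, the most abundant of them, went from 44.7 to 115 CPM (1.38 ± 0.27, FDR = 0.0012 by edgeR), Sema3b from 8.65 to 27.4 CPM (1.68 ± 0.22) and Sema3f from 10.6 to 22.9 CPM (1.13 ± 0.23, log2 fold change with SE). Sema3a, which repels axons through Nrp1, was called at 0.59 ± 0.14. Sema3d (0.46) and Sema3g (0.20) were not called. Of 5 plexins and the plexin ligand Sema3e, 2 were called higher in each comparison against the same backgrounds, Plxna1 (0.94 ± 0.11 against naïve) and Plxna3 (1.03 ± 0.13). Plxnd1, the most abundant, passed the FDR against naïve (0.0047) at a log2 fold change of 0.39.

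Most inhibitors of vessel growth on the list rose. Of 10 inhibitor genes, 6 were called higher in each comparison and 0 lower, beside 10.4% and 9.33% of all genes called higher, with a median log2 fold change of 1.24 against naïve. Thbs2 (thrombospondin-2) went from 81.4 to 1198 CPM, with a log2 change of 3.90 ± 0.18 (SE; FDR = 1.8e-09 by edgeR). Tnmd (tenomodulin) had 3.68 ± 0.37, Col18a1, the source of endostatin, 2.38 ± 0.35, and Serpinf1, which encodes pigment epithelium-derived factor, 1.64 ± 0.20. Thbs1, the next most abundant after Thbs2 in injured cartilage, went from 529 to 941 CPM (0.85 ± 0.14). Cnmd, the chondrocyte inhibitor chondromodulin, was at 56.7 CPM in injured and 45.0 CPM in naïve cartilage and did not pass (0.35 ± 0.16, FDR = 0.10).

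Few components of receptor signalling were called. Of 35 genes, 4 were called higher against naïve and 2 against contralateral cartilage, which is 11.4% and 5.71%, near the backgrounds of 10.4% and 9.33%. Those called against naïve were Nos3 (endothelial nitric oxide synthase, 0.83 ± 0.19), Plcg1 (phospholipase C gamma, 0.74 ± 0.09), Ptk2 (focal adhesion kinase, 0.71 ± 0.10) and Pik3r2 (0.66 ± 0.07, log2 fold change with SE), of which Ptk2 and Pik3r2 were also called against contralateral cartilage. Without contralateral replicate 1, 4 of 35 were called there, and without contralateral replicate 2 or 3 or injured replicate 3, 1 of 35. Cdc42, the most abundant of the 35, was among the calls of neither comparison. It was at 407 ± 8.86 CPM in day 7 injured (SD, n = 3) and 326 ± 21.9 CPM in naïve cartilage (SD, n = 6). Of 12 genes known to be induced by VEGF in endothelium, 5 were called higher in each comparison (backgrounds 10.4% and 9.33%) and 0 lower. They were the transcription factor gene Nr4a2 (2.95 ± 0.28, from 5.62 ± 1.33 CPM, SD, n = 6, to 42.6 ± 23.9 CPM, SD, n = 3), Apln (apelin, 2.10 ± 0.52), Rcan1 (1.58 ± 0.25), Adamts1 (1.16 ± 0.31) and the Notch ligand gene Dll4 (0.83 ± 0.16, log2 fold change against naïve with SE). Esm1 and Angpt2, genes of endothelial tip cells, had log2 fold changes of -0.02 ± 0.18 and 0.09 ± 0.09, and neither passed. Cxcr4, the most abundant of the 12, had a lower mean in injured cartilage and was not called. It was at 101 ± 4.69 CPM in day 7 injured (SD, n = 3) and 129 ± 7.69 CPM in naïve cartilage (SD, n = 6). When single libraries were left out, 4 or 5 of the 12 were called in each comparison.

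The oxygen-sensing genes upstream of Vegfa were uneven. Hif1a, the oxygen-regulated transcription factor subunit, was at 304 ± 61.6 CPM in day 7 injured (SD, n = 3) and 101 ± 22.2 CPM in naïve cartilage (SD, n = 6), a log2 fold change of 1.61 ± 0.20 (SE; FDR = 2.4e-05 by edgeR). Epas1, which encodes the related HIF2 subunit, had 0.01 ± 0.13 and did not pass, and Hif3a was called lower at -0.66 ± 0.22 (FDR = 0.033). Of all genes, 10.4% were called higher and 6.11% lower in that comparison. The count of 2 called genes among the 9 of this list fell to 1 without naïve replicate 1 or 3 or injured replicate 2 or 3. Of 12 target genes other than Vegfa, 3 were called higher against naïve, P4ha1 (collagen prolyl hydroxylase, 1.20 ± 0.09), Higd1a (0.81 ± 0.12) and Slc2a1 (glucose transporter, 0.62 ± 0.19). Against contralateral cartilage 1 was called, P4ha1, and 2 when contralateral replicate 1 or 3 or injured replicate 2 or 3 was left out. These shares of 25.0% and 8.33% stand beside 10.4% and 9.33% of all genes called higher. Ldha, Pgk1, Adm and Ndrg1 did not pass in either comparison. Vegfd, the remaining ligand gene of the family, was at 3.84 ± 0.634 CPM in injured (SD, n = 3), 2.60 ± 0.625 CPM in naïve (SD, n = 6) and 1.94 ± 0.928 CPM in contralateral cartilage (SD, n = 3). It was called against contralateral cartilage (0.94, FDR = 0.036), a call that was lost without contralateral replicate 1 or 3 or injured replicate 1 or 3, and missed the fold limit against naïve (0.58, FDR = 0.039). Of the angiopoietins and their receptors (5 genes), Tie1 was the 1 gene called against naïve (0.75 ± 0.11). Against contralateral cartilage Angpt4 was called lower (-0.75), beside 3.23% of all genes, and without contralateral replicate 1 there were 2 calls, 1 higher and 1 lower.

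**Figure D5:**
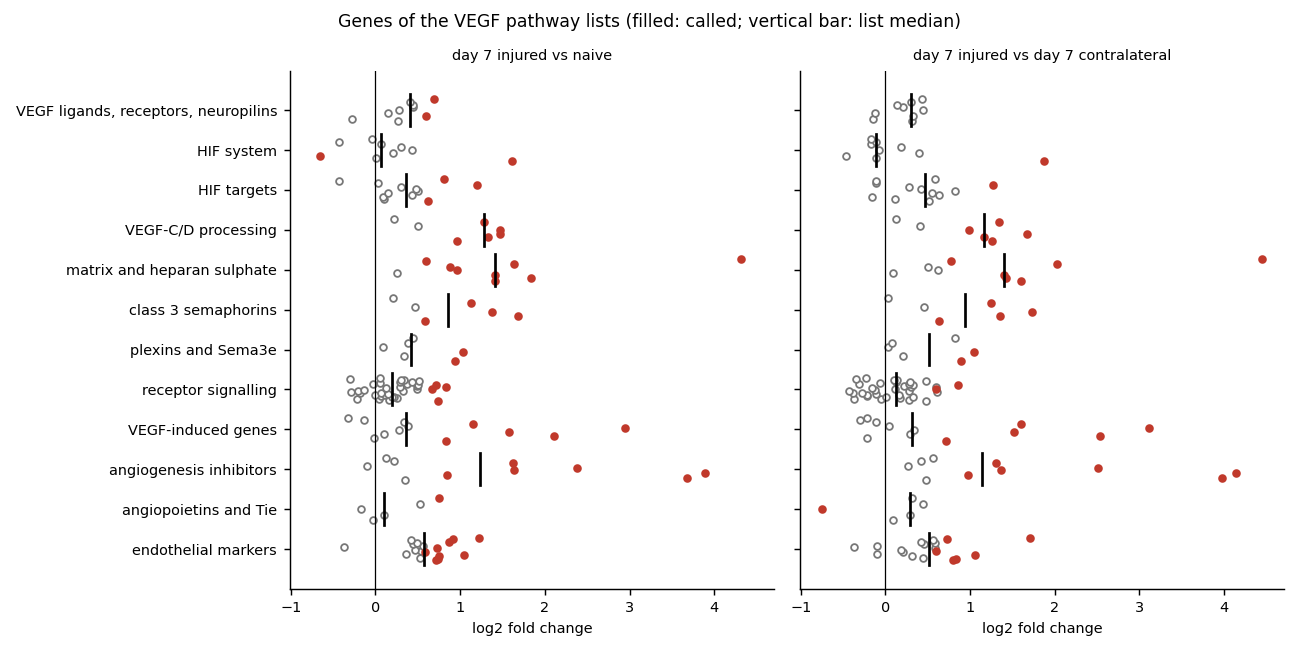
Log2 fold change of every gene of the 9 VEGF genes, the 10 pathway lists with more than 1 gene and the endothelial markers in day 7 injured cartilage, against naïve on the left and contralateral cartilage on the right. Filled points are called (FDR of 0.05 or less and at least 1.5-fold by edgeR) and vertical bars are list medians. The medians of the processing, matrix and inhibitor lists lie above 1 on both sides, and that of the 9 VEGF genes lies at 0.40 and 0.31.

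Some markers of endothelium, the cells that carry VEGF receptors, were called higher at day 7. Of 18 endothelial markers (receptor genes not among them), 9 were called higher against naïve and 6 against contralateral cartilage (3 without injured replicate 3), and 0 lower, beside 10.4% and 9.33% of all genes called higher. Their summed level was 934, 913 and 1033 CPM in the 3 day 7 injured libraries. In naïve cartilage it ran from 680 to 805 CPM and in day 7 contralateral cartilage from 755 to 782 CPM, so the injured libraries lay above both groups. Pecam1 (0.71 ± 0.09) and Cdh5 (0.74 ± 0.13), junction proteins of endothelium, and Emcn (1.04 ± 0.14) were called in both comparisons, whereas Vwf, the most abundant marker of the list, had -0.37 ± 0.12 against naïve (log2 fold change with SE), in the direction opposite to the others. No marker of the list was at or under 3 counts throughout a group.

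As a share of the summed endothelial markers, the receptor genes and Nrp1 differed little between injured and naïve cartilage. Kdr stood at 8.47 ± 0.466% of that sum in day 7 injured and 8.03 ± 0.887% in naïve cartilage, Flt1 at 6.49 ± 0.516% and 6.90 ± 0.592%, Flt4 at 3.96 ± 0.280% and 3.73 ± 0.223%, and Nrp1 at 10.5 ± 0.448% and 10.2 ± 0.781%. For all 4 the ranges of the groups overlapped. Nrp2 was at 26.7 ± 2.58% and 21.2 ± 2.71%, and Vegfc at 0.889 ± 0.0697% and 0.761 ± 0.124% (SD, n = 3 and n = 6), again with overlapping ranges. The part of endothelial RNA in the changes of these genes was not tested. Vwf made up 195 of the 960 CPM of that sum in day 7 injured and 255 of 756 CPM in naïve cartilage (group means). The shares thus depend in part on Vwf, whose change ran opposite to that of the sum, and shares without Vwf were not computed.

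Markers of other cell types were called in varying number. The counts below stand beside 10.4% of all genes called higher and 6.11% lower against naïve cartilage, and 9.33% and 3.23% against contralateral cartilage. Counts at an unadjusted p of 0.05 or less in edgeR stand beside 8679 of 21129 genes against naïve and 6629 of 21262 against contralateral cartilage. Of 8 synovial fibroblast markers, 6 were called higher against naïve and 5 against contralateral cartilage, with sums of 71919 to 82788 CPM in day 7 injured and 10879 to 18674 CPM in naïve libraries. This sum was led by Col1a1, which bone also makes, and was 56776 CPM in day 7 contralateral replicate 1. Of 10 mural cell markers 5 were called higher in each comparison, and of 6 lymphatic markers 2 against naïve (Prox1, 1.46 ± 0.28, and Ccl21a, 1.49 ± 0.29) and 3 against contralateral cartilage (2 whichever library of that comparison was left out), while Lyve1 (-0.42 ± 0.36) did not pass. The most abundant marker of each of these lists had a lower mean in day 7 injured than in naïve cartilage, and neither was called against naïve. Lymphatic Mmrn1 was at 47.6 ± 5.32 and 63.7 ± 3.88 CPM, and mural Des at 165 ± 69.0 and 215 ± 84.1 CPM (SD, n = 3 and n = 6). None of 8 macrophage markers was called by edgeR in either comparison, with 4 at an unadjusted p of 0.05 or less against naïve and 1 against contralateral cartilage. Against naïve limma-voom called 1 of them and DESeq2 0, and edgeR called 1 without naïve replicate 2, 5 or 6 or injured replicate 1 or 3. Of 12 chondrocyte markers 3 were called higher (Acan, Comp and Sox9) and 1 lower (Chad) against naïve, and of 6 hypertrophic chondrocyte markers 2 were higher (Mmp13 and Panx3), without Col10a1 (-0.02 ± 0.30). Of 6 osteoclast markers 1 was called higher (Ctsk), and of 8 osteoblast and osteocyte markers 1 was higher (Ibsp) and 2 lower (Sost and Mepe). Markers of marrow and fat were called lower against naïve, 4 of 6 for megakaryocytes, 5 of 8 for erythroid cells, 2 of 7 for neutrophils and 2 of 5 for adipocytes, and none of 6 skeletal muscle markers was called by edgeR, with 2 at an unadjusted p of 0.05 or less. DESeq2 and limma-voom each called 1 muscle marker, as did edgeR without naïve replicate 5. When single libraries were left out, the count ran from 2 (without injured replicate 3) to 7 for erythroid cells. It was 0 for neutrophils without naïve replicate 4 or injured replicate 2 or 3, and 1 without naïve replicate 2 or 6. For adipocytes it was 4 without naïve replicate 5, 0 without injured replicate 3, and 1 without naïve replicate 3 or 4 or injured replicate 1 or 2. The osteoclast count was 2 without naïve replicate 3 or 6 or injured replicate 1, and the hypertrophic count was 1 without injured replicate 2 or any naïve library but replicate 3. Against contralateral cartilage 0 of 6 hypertrophic and 0 of 6 osteoclast markers were called by edgeR, DESeq2 or limma-voom, with 0 and 2 at an unadjusted p of 0.05 or less in edgeR. In that comparison 4 chondrocyte markers were called higher (Acan, Hapln1, Comp and Sox9), and Sost was called lower among the 8 bone markers, with 2 calls without contralateral replicate 1 or 3. Lower calls there numbered 3 for megakaryocytes (1 without injured replicate 2 or 3) and 4 for erythroid cells (0 without contralateral replicate 1 or injured replicate 3). They numbered 2 for neutrophils (0 without injured replicate 2 or 3, 4 without injured replicate 1) and 3 for adipocytes (1 without contralateral replicate 1, 0 without injured replicate 3). The part of these cell types in the changes of the VEGF genes was not tested.

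Within groups, the spread between libraries of Vegfa, Vegfb, Flt1 and Kdr ran along with skeletal muscle RNA and with mural cell markers, and that of Flt1 also with endothelial markers. The summed muscle markers ranged from 1960 CPM in day 7 injured replicate 2 to 10207 CPM in day 1 injured replicate 3, the library with the highest Vegfa and Vegfb. With group means taken out of the 18 libraries, which share the same normalization, Pearson's r between the log2 muscle sum and log2 CPM was 0.75 for Kdr, 0.72 for Vegfb, 0.71 for Vegfa and 0.65 for Flt1. It was 0.50 for Flt4, 0.40 for Pgf, 0.29 for Nrp2, 0.19 for Vegfc and 0.0089 for Nrp1. With the mural sum, r within groups was 0.79 for Vegfb and Flt1, 0.78 for Kdr and 0.68 for Vegfa. Des, the most abundant mural marker in naïve cartilage, was at 332 CPM in day 1 injured replicate 3 and 137 CPM in replicate 2. The muscle sums there were 10207 and 2878 CPM. Whether the mural and muscle correlations are separate was not tested. Over all libraries, group differences included, r with the muscle sum was 0.72 for Vegfb, 0.42 for Vegfa, 0.31 for Flt1 and 0.072 for Kdr, and -0.38, -0.39 and -0.23 for Vegfc, Nrp1 and Nrp2. With the endothelial sum, r within groups was 0.75 for Flt1, 0.64 for Flt4, 0.57 for Kdr, 0.56 for Nrp1, 0.45 for Nrp2, 0.47 for Vegfb, 0.28 for Vegfa and 0.15 for Vegfc. Over all libraries it was 0.76 for Flt1 and Kdr, 0.77 for Flt4 and Nrp2, 0.84 for Nrp1 and 0.65 for Vegfc. Some genes ran closer to other marker sums, with r of 0.61 within groups and 0.84 over all libraries between Nrp2 and osteoclast markers, 0.68 and 0.78 between Flt4 and chondrocyte markers, and 0.41 and 0.86 between Vegfc and synovial fibroblast markers. For Flt4 and synovial fibroblast markers r was 0.56 and 0.86. The chondrocyte sum was 14324 CPM in day 7 contralateral replicate 1, against 4983 and 5983 CPM in replicates 2 and 3. Flt4 was also highest in replicate 1 (40.3 CPM), and r without that library is not given. These correlations describe the libraries, and the part of RNA from these cell types was not tested.

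For each gene, the 3 genes of most similar pattern were found by Pearson's r of log2(CPM + 0.5) over the 18 libraries among 15977 genes with a mean of at least 1 CPM. These correlations are across libraries that differ in tissue content. Vegfa was closest to Lynx1 (r = 0.93), Bnip3 (0.92), induced by low oxygen and encoding a protein of mitochondria, and Osbpl1a (0.91), and Vegfb to Fndc5 (0.93), Pptc7 (0.92) and Pdhb (0.91), the last 2 being genes of mitochondrial proteins. Vegfc was closest to Tbc1d9b (0.90), Hdac3 (0.89) and Trappc11 (0.88), and Pgf was close to Mt3 (0.79) and Sp6 (0.79). Among the receptors, Flt1 was closest to Zfyve9 (0.95), Tns2 (0.94) and Jam2 (0.93), a junction protein of endothelium, Kdr to Dab2ip, Slc9a3r2 and Mmp15 (0.93 each) and Flt4 to Fam234a (0.95), Sil1 (0.94) and Sft2d2 (0.93). Nrp1 was closest to Plvap (0.94), a protein of fenestrated endothelium, and then to Cbfa2t2 and Dock1 (0.94 each), and Nrp2 to Farp2 (0.95), which encodes a guanine nucleotide exchange factor of semaphorin signalling, and was also close to Mmp16 (0.94). Within groups, r was 0.56 to 0.65 for the 3 genes named for Vegfc and 0.70 or more for those named for every other member, so the likeness to Vegfc rested more on differences between groups.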

How the data were processed

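The authors sequenced total RNA of pooled cartilage caps, trimmed reads with Trimmomatic and quantified transcripts with kallisto. The deposited tables give, per the file headers, transcript length, effective length, estimated counts and TPM (length-scaled abundance) for each library. The labels' processing notes also name DESeq2 and GRCh38, while the files hold mouse transcripts and the methods name GRCm38. Here, the deposited estimated counts were summed per gene (135107 of 137436 transcripts matched the GRCm38 annotation), rounded and tested with edgeR 4.0.16 in R 4.3.3 (TMM, filterByExpr, glmQLFTest, Benjamini-Hochberg). Comparisons without the day 7 contralateral group used the other 15 libraries. DESeq2 1.42.0, limma-voom (limma 3.58.1), other scalings, no filter, length offsets, other thresholds and leaving out libraries were alternatives. Transcript shares are of the deposited estimated counts, with shares of the deposited TPM as an alternative. Members and lists were chosen with earlier results of these data known. All 9 members, up to 4 called genes of largest change per pathway list with its most abundant gene, and the 3 genes most like each member were named by rule. Of the latter, 1 gene for Pgf and 1 for Nrp2 are not reported here. Other genes were named after their values were seen.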

Additional observations from a re-analysis of the deposited data

How the results depend on the processing

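The count of called VEGF genes between day 7 injured and naïve cartilage, 2, was 5 without the fold limit and 1 with DESeq2 size factors in edgeR, without the filter on low counts or with all 18 libraries, and ran from 1 to 2 when single libraries were left out. Nrp2 was called each time a library was left out, with a log2 fold change of 0.61 to 0.79. Where the count was 1, the call lost was that of Vegfc. Between day 7 and day 1 injured cartilage the count of 1 was 4 without the fold limit and ran from 1 to 2. In the other comparisons it was 0 in every alternative run. The Flt1-203 difference was 3.40 to 6.13 percentage points and that of Vegfa-202 was 1.57 to 7.43 when a library was left out. Of 999 alternative log2 fold changes over the 72 results of the 9 genes, 43 changed sign, in 21 results, none of them called, and the cause was not tested beyond the choice of libraries or setting. With a transcript length offset Vegfc had -0.26 between day 7 injured and contralateral cartilage and -0.41 for the injury effect at day 7 minus that at day 1. Between day 1 injured and naïve cartilage Vegfb had -0.0042 with limma-voom and -0.032 with the length offset, and Flt4 had 0.0031 with DESeq2 and 0.0037 with DESeq2 size factors. With single libraries left out, log2 fold changes that changed sign ran between day 7 and day 1 injured cartilage -0.087 to 0.32 for Vegfa. They ran between day 1 injured and naïve cartilage -0.058 to 0.35 for Vegfa, -0.28 to 0.23 for Vegfb, -0.021 to 0.26 for Flt1, -0.11 to 0.26 for Kdr, -0.058 to 0.073 for Flt4 and -0.0086 to 0.075 for Nrp1. They ran between day 1 injured and contralateral cartilage -0.011 to 0.42 for Vegfa, -0.14 to 0.37 for Vegfb, -0.088 to 0.22 for Pgf, -0.0048 to 0.36 for Kdr and -0.027 to 0.12 for Flt4. They ran between day 1 contralateral and naïve cartilage -0.26 to 0.11 for Vegfa and -0.094 to 0.031 for Flt4. They ran between day 7 contralateral and naïve cartilage -0.14 to 0.023 for Vegfa. They ran for the injury effect at day 7 minus that at day 1 -0.12 to 0.32 for Vegfa, -0.15 to 0.21 for Kdr, -0.029 to 0.23 for Flt4 and -0.094 to 0.17 for Nrp2. No paired analysis was run here because no label ties an injured library to the contralateral library of its mice. Replicate numbers were not used to pair them. The study's own limma model took shared mouse pools into account through duplicateCorrelation. No library held fewer than 46 Pgf or 87 Vegfc counts, and these 2 genes had the lowest depth of the 9.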
